A study of Homo sapiens with 3 samples.

Results

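The untreated library of MCF10Ca1h cells is described here by its absolute RNA levels. It is 1 of the 3 libraries of the series and was chosen by its treatment label alone. The other 2 libraries came from cells given the PADI4 inhibitor GSK484 or a control compound for 72 h, and they were not analysed here. MCF10Ca1h is an established human breast cancer cell line, grown in DMEM/F12 with 5% horse serum and given no compound. The labels state no time in culture and no number of cultures behind the library. RNA was sequenced from a stranded total RNA preparation as paired reads of 125 bp. The library held 70555229 expected counts, which are estimated reads per gene, over 56632 gene IDs. With 1 library there is no replicate spread. Unless named otherwise, each interval is a 95% Poisson interval on the rounded count and covers counting error only. The limit given for a count of 0 is instead the level of 3 counts, where that interval would reach 3.69.

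As background, MCF10Ca1h belongs to the MCF10 series, which began with MCF-10A, a non-tumorigenic mammary epithelial line that arose spontaneously in culture. The malignant members were derived from MCF-10A cells transformed with activated HRAS and passed through mice as xenografts. Mammary ducts have an inner luminal layer, marked by keratins 8, 18 and 19, and an outer basal layer, marked by keratins 5 and 14 and the transcription factor p63. Peptidylarginine deiminases, the enzyme family named in the study's title, turn arginine residues of proteins into citrulline.

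Levels are given as TPM, a measure of transcript abundance that divides reads by effective transcript length and so allows genes to be compared within the library. Of 18907 protein-coding genes with a symbol, 11074 (58.6%) were at or above 1 TPM. Each count of coding list members at 1 TPM below is to be read beside this share. At or above 10 TPM were 6784 (35.9%), and at or above 100 TPM were 1350 (7.14%). A count of 0 was found for 4134. The median of these genes was 3.17 TPM. Over all 56632 gene IDs, 12984 (22.9%) reached 1 TPM. RNA was concentrated in few genes. The 30 most abundant protein-coding genes held 19.4% of all TPM and the top 1000 held 71.5%. Mitochondrial genes held 8.08% of TPM and 4.78% of counts.

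**Figure D1:**
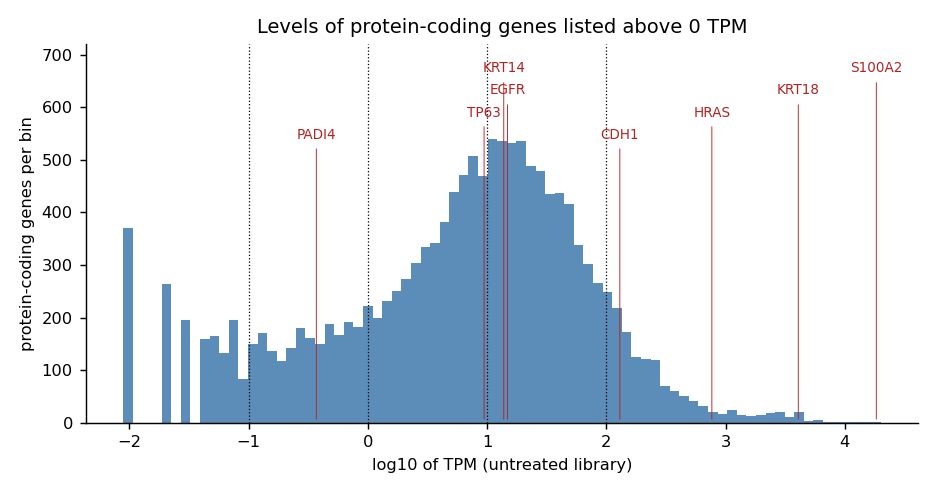
Number of protein-coding genes in the untreated library by log10 of TPM, for genes listed above 0 TPM, with dotted lines at 0.1, 1, 10 and 100 TPM and red lines at 8 named genes. The main mode lies just above 10 TPM, with S100A2 at the upper end and PADI4 below 1 TPM.

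S100A2, a calcium-binding protein gene of basal and squamous epithelium, was the most abundant of the 18817 ranked protein-coding genes. It was at 18375 TPM (interval 18323 to 18428) from 465146 counts over an effective length of 417. By count it ranked 5, so its first place holds for TPM only. Of the 30 highest genes, 6 were mitochondrially encoded and 14 coded for cytosolic ribosomal proteins, RACK1 of the small subunit included. TMSB10, an actin-monomer-binding protein gene, ranked 5 at 8551 TPM. GAPDH, a glycolytic enzyme gene, ranked 7 at 7513 TPM, and ANXA2, a membrane-binding annexin gene, ranked 9 at 6297 TPM. NPM1, which codes for nucleophosmin, a nucleolar chaperone, ranked 12 at 4848 TPM. KRT18 and KRT8, the paired keratins of simple epithelium, ranked 27 and 30. Translation and energy genes thus made up most of the top of the list, with a few epithelial genes among them. Expected counts of GAPDH, ANXA2, NPM1, KRT18 and KRT8 were not whole, which is called divided reads here, so their levels rest partly on how RSEM assigned them. Ranked by count in place of TPM, 17 of the 30 genes stayed among the 30 highest.

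Promoter sequences are shown to set the most abundant gene beside other genes of high level. They are RefSeq windows of GRCh38.p14, matched by symbol, and the 100 bases before the start are printed 5′ to 3′ on the gene's strand. Capitals mark CpG dinucleotides, whose density separates the promoters of broadly expressed genes from many tissue-restricted ones.
S100A2 (chr1:153565845-153565944, minus strand): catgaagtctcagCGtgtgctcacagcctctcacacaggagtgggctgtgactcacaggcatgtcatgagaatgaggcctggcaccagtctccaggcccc
KRT5 (chr12:52520395-52520494, minus strand): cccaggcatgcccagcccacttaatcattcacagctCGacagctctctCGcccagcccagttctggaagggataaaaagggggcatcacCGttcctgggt
TMSB10 (chr2:84905556-84905655, plus strand): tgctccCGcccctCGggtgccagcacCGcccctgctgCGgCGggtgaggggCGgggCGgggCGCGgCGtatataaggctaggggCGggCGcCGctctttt
GAPDH (chr12:6535164-6535263, plus strand): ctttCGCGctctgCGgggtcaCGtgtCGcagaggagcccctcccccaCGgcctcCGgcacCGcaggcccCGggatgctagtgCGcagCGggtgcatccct

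These 100 bases held 1 CpG in S100A2 and 3 in KRT5, against 13 in TMSB10 and 11 in GAPDH. Over the whole window, the ratio of observed to expected CpG was 0.19 for this S100A2 window, 0.15 for its other listed window and 0.30 for KRT5. It was 0.83 for TMSB10 and 0.76 for GAPDH. A window with a ratio of at least 0.6 is called CpG-rich. CpG-rich windows made up 84.3% of 1638 windows, from 1121 genes, at or above 100 TPM (95% Wilson interval 82.5% to 86.0%). Some genes gave several windows, and the Wilson intervals treat windows as independent, so they may be too narrow. The CpG-rich share was 80.9% of 6562 windows at 10 to 100 TPM and 71.5% of 5152 windows at 1 to 10 TPM. It was 48.9% over all 35116 windows in the table. Those were taken whatever their gene, so they are not limited to coding genes as the classes are. S100A2 and KRT5 were therefore abundant genes with windows outside the CpG-rich majority. The letters TATAAA lay 40 to 15 bases before the start, on the gene's strand, in 2.63% of windows at or above 100 TPM (interval 1.95% to 3.52%). They lay there in 1.11% at 10 to 100 TPM (0.886% to 1.40%), 1.65% at 1 to 10 TPM and 2.30% of all windows. None of the printed windows held these exact letters there. Close variants, which the TMSB10 and KRT5 sequences hold in that region, were not counted. Below 1 TPM fewer than 80% of genes matched a window, so no share is given.

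**Figure D2:**
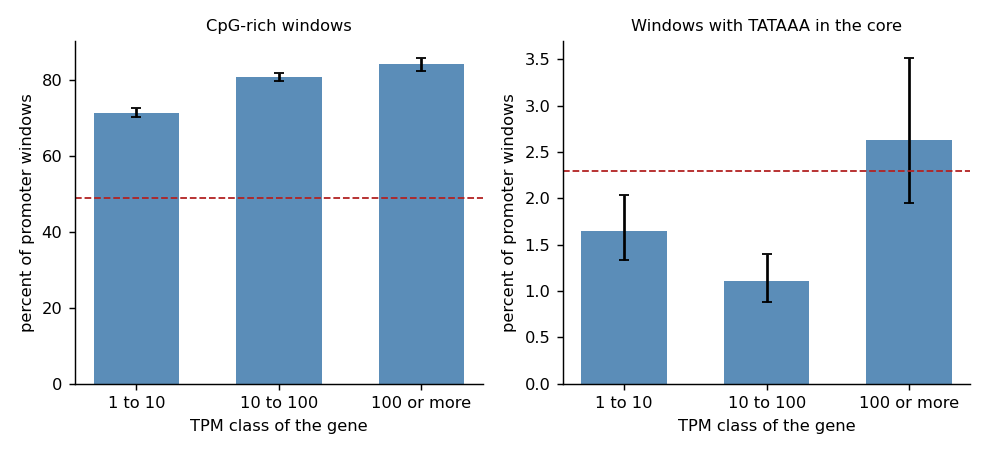
Percent of RefSeq promoter windows that are CpG-rich (left) and that hold TATAAA 40 to 15 bases before the start (right), by TPM class of the gene in the untreated library. Bars are shares and error bars 95% Wilson intervals that treat windows as independent. Dashed lines are the share over all windows, whatever their gene (48.9% and 2.30%). The CpG-rich share is 71.5%, 80.9% and 84.3% from the lowest to the highest class.

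Epithelial markers are described here beside the labelled cell type. Their lists were chosen with earlier results of these data known, so the counts are no independent check of the label. All 20 of 20 basal epithelial genes were at or above 1 TPM, 11 of them at or above 100 TPM, with a median of 145 TPM against 3.17 over all protein-coding genes. KRT15, a basal keratin gene, was at 2879 TPM (interval 2867 to 2891). KRT5, the main basal type II keratin gene, was at 685 TPM. KRT14, which codes for the usual partner of keratin 5, was assigned 13.8 TPM (12.8 to 14.8). KRT14, KRT16 and KRT17 are similar in sequence and all had divided reads. Those 3 genes summed to 1469 TPM, of which KRT17 was given 1425, so the split among them is uncertain and the level of KRT14 against KRT5 cannot be read from it. KRT15, with whole counts, lay above their sum.

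Other basal genes spanned a wide range. ITGB4, the hemidesmosomal integrin beta 4 gene, was at 1212 TPM and ITGA6, its partner, at 183 TPM. LAMB3 (278 TPM) and LAMA3 (137 TPM), chains of an epithelial basement membrane laminin, were abundant. COL17A1, a hemidesmosomal collagen gene, was at 154 TPM, and CDH3, which codes for P-cadherin, at 152 TPM. The regulators of the basal state were lower than its structural genes. TP63, which codes for p63, was at 9.44 TPM (interval 9.07 to 9.82), and SNAI2, a basal transcription factor gene, at 4.01 TPM (3.65 to 4.39). The basal cadherins of desmosomes, DSC3 and DSG3, were at 15.03 and 14.14 TPM.

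Luminal genes were present alongside. Of 19 luminal markers with a gene ID, 14 were at or above 1 TPM and 7 at or above 100 TPM, with a median of 24.2 TPM. KRT18 (4072 TPM), KRT8 (3922 TPM) and KRT7 (3611 TPM) exceeded every basal keratin gene on the list, all with divided reads. KRT19, another luminal keratin gene, was at 3.73 TPM (interval 3.26 to 4.25), and KRT7 was 968-fold above it. EPCAM, an epithelial adhesion molecule gene, was at 330 TPM, and CLDN7 and CLDN4, tight junction claudin genes, were at 184 and 145 TPM. FOXA1 and GATA3, luminal transcription factor genes, were at 24.2 and 15.6 TPM. ELF5 and KIT, markers of luminal progenitors, and TFF3 had counts of 0. Bulk RNA does not tell whether basal and luminal genes were in the same cells, and fewer cells of a type cannot be told apart from less RNA per cell.

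**Figure D3:**
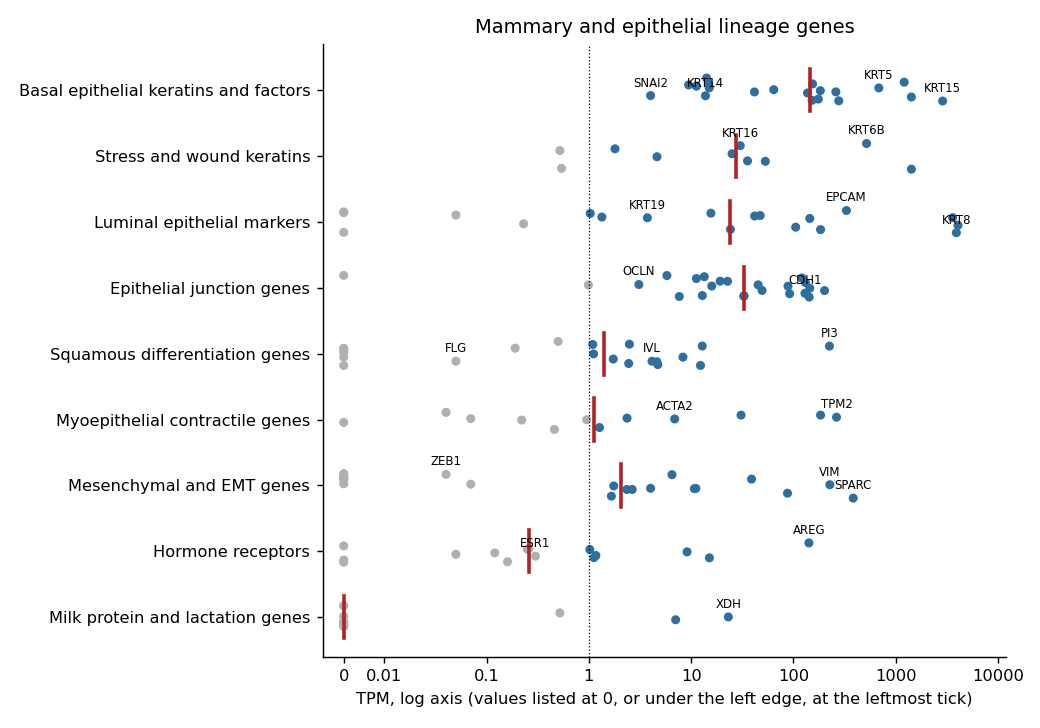
TPM of each member of 9 mammary and epithelial gene lists in the untreated library, on a log axis with zero values at the leftmost tick; blue points are at or above 1 TPM, grey points below, red bars are list medians. Basal genes all lie at or above 1 TPM (median 145 TPM). Luminal genes range from 0 to 4072 TPM (median 24.2 TPM), and milk protein genes lie mostly at 0.

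Hormone-dependent and secretory genes were low. Of 15 hormone receptor and target genes, 6 reached 1 TPM, and 3 did at a minimum of 2 TPM. ESR1, the estrogen receptor gene, was at 0.30 TPM (interval 0.25 to 0.36, from 108 counts). PGR, the progesterone receptor gene, had a count of 0, which allows up to 0.015 TPM. AREG, an EGF family ligand gene that is also an estrogen target, was at 142 TPM, with divided reads. VDR and NR3C1, the vitamin D and glucocorticoid receptor genes, were at 15.1 and 9.12 TPM. ERBB2, the HER2 gene, was at 45.0 TPM, at rank 2731. Of 13 milk protein and lactation genes with a gene ID, 10 had a count of 0, caseins and LALBA among them. XDH, a xanthine dehydrogenase gene needed for milk fat secretion, was at 23.1 TPM, and STAT5B, a mediator of prolactin signalling, at 7.05 TPM.

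Stress keratin and squamous differentiation genes spanned a wide range of levels. Of 10 stress and wound keratin genes, 8 reached 1 TPM, with a median of 27.7 TPM. KRT6B was at 519 TPM, and KRT6A at 25.1 TPM, but the similar genes KRT6A, KRT6B and KRT6C all had divided reads, and they summed to 546 TPM. Of 20 squamous differentiation genes with a gene ID, 12 reached 1 TPM, a share of 60% that is near the 58.6% of all protein-coding genes. Their median was 1.42 TPM against 3.17 over all protein-coding genes. The 1 gene at or above 100 TPM was PI3, which codes for the protease inhibitor elafin, at 225 TPM. IVL, which codes for the envelope protein involucrin, was at 4.14 TPM, and FLG, the filaggrin gene, at 0.05 TPM. KRT1, the keratin gene of cornifying layers, had a count of 0, while its partner KRT10 was at 12.8 TPM.

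Epithelial junctions were well represented. Of 23 junction genes, 21 reached 1 TPM and 18 reached 10 TPM, with a median of 32.7 TPM. CDH1, which codes for E-cadherin, was at 130 TPM, and CTNNA1 and CTNNB1, the catenin genes that link cadherins to actin, were at 202 and 131 TPM. ESRP1 and GRHL2, regulators of the epithelial state, were at 49.4 and 11.3 TPM. PKP1, a plakophilin gene of stratified epithelium, was listed at 0 TPM with 1 count.

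Mesenchymal genes were mixed. Of 20 mesenchymal and EMT genes, 12 reached 1 TPM, close to the 58.6% of all protein-coding genes, and 6 had a count of 0. SPARC, a matricellular protein gene, was at 385 TPM and VIM, the vimentin gene, at 227 TPM, with divided reads. TGFBI, a matrix protein gene, was at 87.5 TPM, and FN1, the fibronectin gene, at 11.1 TPM. ZEB1 and ZEB2, repressors of E-cadherin, were at 0.04 TPM (interval 0.018 to 0.076, 9 counts) and 0.07 TPM (0.028 to 0.144, 7 counts). CDH2, which codes for N-cadherin, was at 2.65 TPM, and CDH1 was 49.0-fold above it. TWIST1 was at 6.49 TPM and SNAI1 at 1.66 TPM. Fibrillar collagen genes COL1A2 and COL3A1 had counts of 0. The library therefore held high vimentin and SPARC RNA beside high E-cadherin RNA and near-absent ZEB RNA.

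Among noncoding transcripts, MIR205HG, the host gene of miR-205, was at 277 TPM (interval 273 to 282). MIR200CHG, the host of miR-200c and miR-141, was at 7.69 TPM from 76 counts over an effective length under 200 bases. It was chosen after its value was seen. As background, these miRNAs target ZEB1 and ZEB2. Mature miRNAs were not measured by this library, so their sequences are printed only to identify them, in RNA letters from RefSeq (GRCh38.p14), with the seed, bases 2 to 8, in capitals.
hsa-miR-205-5p: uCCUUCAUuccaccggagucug
hsa-miR-200c-3p: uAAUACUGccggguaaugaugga
hsa-miR-141-3p: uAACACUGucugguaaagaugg
The seeds of miR-200c-3p and miR-141-3p differ from each other, and that of miR-205-5p differs from both. Of 27 listed long noncoding RNAs, 20 had a gene ID, and 17 of those (85%) reached 1 TPM, beside 22.9% of all gene IDs. By GENCODE type, 207 of 5988 long intergenic, 405 of 4730 antisense and 89 of 438 processed transcript genes did. The list was picked by name, so its share does not describe such RNAs in general. SNHG5 (555 TPM) and GAS5 (444 TPM), which host small nucleolar RNAs, were the highest, while the nuclear RNAs NEAT1 and MALAT1 were at 82.4 and 19.9 TPM. MEG3, an imprinted RNA, had a count of 0. The mitochondrial ribosomal RNAs MT-RNR2 and MT-RNR1 were at 670 and 307 TPM.

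HRAS, a small GTPase of the ERK pathway, was at 767 TPM (interval 758 to 776) and ranked 173 of 18817. That was 54.5-fold above NRAS at 14.1 TPM (13.6 to 14.6). HRAS and NRAS thus differed far beyond counting error. The table cannot tell RNA of an introduced HRAS from that of the cell's own gene. Of 21 RAS, RAF and PI3K genes, 20 reached 1 TPM, with a median of 22.9 TPM. MAP2K2, an ERK pathway kinase gene, was at 146 TPM and PIK3CA, a PI3K subunit gene, at 4.63 TPM. Of 16 ERK pathway feedback and target genes, 15 reached 1 TPM. IER3, an immediate early gene, was at 453 TPM, FOSL1, an AP-1 subunit gene, at 150 TPM and DUSP6, an ERK phosphatase gene, at 62.9 TPM.

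Receptors and ligands of the EGF family were expressed together. EGFR was at 14.8 TPM (interval 14.5 to 15.2) and ERBB2 was 3.03-fold above it. ERBB3, a partner receptor, was at 6.52 TPM, and ERBB4 at 0.02 TPM. Of 16 genes of the family, 12 reached 1 TPM. Besides AREG, the ligand genes HBEGF (77.2 TPM), TGFA (36.5 TPM) and NRG1 (23.3 TPM) were expressed, while EGF itself was at 0.20 TPM. EGF receptor RNA was thus found beside several of its ligand RNAs. Of 28 other growth factor receptor genes, 12 reached 1 TPM. DDR1, a collagen receptor kinase gene, was at 134 TPM, EPHA2, an ephrin receptor gene, at 127 TPM and MET at 29.3 TPM. NTRK3, RET, FLT1 and KIT had counts of 0.

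**Figure D4:**
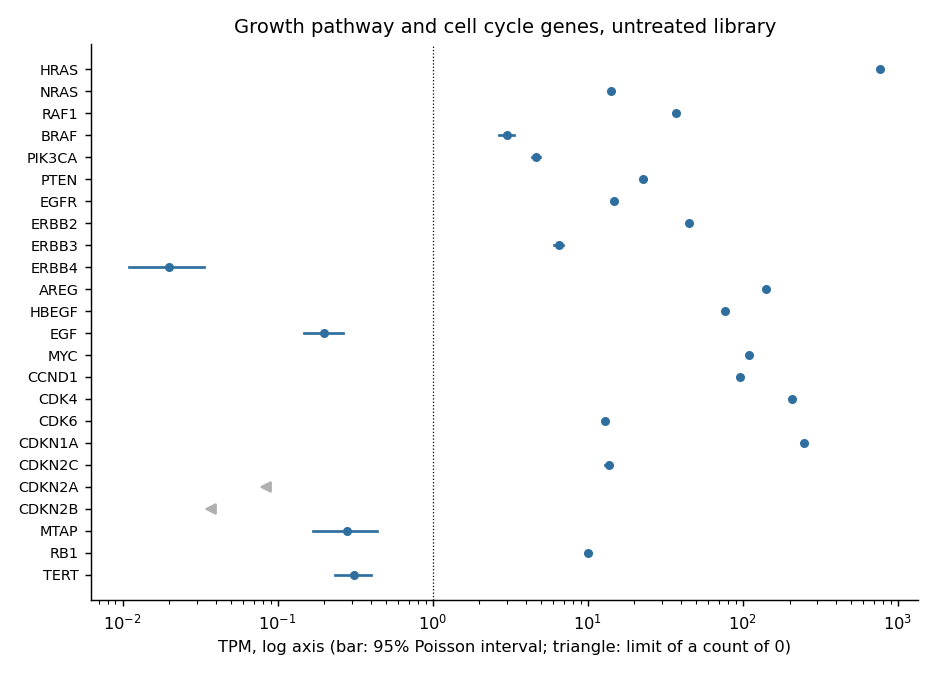
TPM of 24 growth pathway and cell cycle genes in the untreated library on a log axis, with bars for 95% Poisson intervals of the count (most are narrower than the point) and triangles for the limit that a count of 0 allows. HRAS, at 767 TPM, lies above all others plotted, and CDKN2A and CDKN2B have counts of 0.

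RNA of the INK4 locus was not detected at this depth. CDKN2A, which codes for p16 and ARF, CDKN2B, which codes for p15, and the antisense RNA CDKN2B-AS1 all had counts of 0. Those counts allow up to 0.084, 0.037 and 0.045 TPM. MTAP, a methionine salvage enzyme gene and the coding neighbour of CDKN2A, was at 0.28 TPM (interval 0.17 to 0.44, 19 counts). The next coding gene past MTAP, IFNE, an epithelial interferon gene, was at 1.64 TPM, and DMRTA1 was at 1.65 TPM. As background, MCF-10A is known to have lost this locus. DNA was not measured here. Of 17 other G1 genes, 16 reached 1 TPM. CDKN1A, which codes for the cell cycle inhibitor p21, was at 249 TPM, CDK4 at 207 TPM and CCND1, the cyclin D1 gene, at 95.4 TPM, while CDKN1C was at 0.08 TPM.

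Proliferation genes were expressed throughout. All 22 mitosis genes (median 74.2 TPM) and all 20 DNA replication genes (median 66.0 TPM) reached 1 TPM. CDC20, an activator of the anaphase-promoting complex, was at 270 TPM, CCNB1, the cyclin B1 gene, at 230 TPM and PCNA, the replication clamp gene, at 310 TPM. MKI67, the Ki-67 proliferation marker gene, was at 54.2 TPM. Of 20 breast cancer tumour suppressor genes, 19 reached 1 TPM. BRCA1 was at 14.1 TPM and BRCA2 at 2.61 TPM, while TBX3 was at 0.71 TPM. Of 9 telomerase and telomere genes with a gene ID, 8 reached 1 TPM, and the exception was TERT, the telomerase reverse transcriptase gene, at 0.31 TPM (0.23 to 0.40, 57 counts).

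The peptidylarginine deiminases were expressed unequally. PADI3 was at 52.4 TPM (interval 51.4 to 53.5) and PADI2 at 19.4 TPM (18.8 to 19.9). PADI1 was at 4.08 TPM (3.798 to 4.377) and PADI4 at 0.37 TPM (0.27 to 0.49, 47 counts). Among these 4 genes the order was thus PADI3, PADI2, PADI1 and PADI4, with no overlap of counting intervals, and PADI3 was 142-fold above PADI4. PADI6 was matched to no gene ID, so its level is not known here. PADI4, the target of the compound used in the other libraries, ranked 12017 of 18817 genes. Of 17 genes of PADI4 partners and substrates, 13 reached 1 TPM. NPM1 and RPS2, a ribosomal protein gene (4444 TPM), were the highest, and TAL1, MPO and ELANE, genes of blood cells, had counts of 0.

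Stem cell markers spanned the whole range of levels. Of 17 breast stem cell markers with a gene ID, 12 reached 1 TPM, or 70.6% beside 58.6% of all protein-coding genes. Their median was 4.78 TPM against 3.17 over all protein-coding genes. CD44, a hyaluronan receptor gene, was at 429 TPM (interval 426 to 433). ALDH1A3 was at 639 TPM, with divided reads, and ALDH1A1 at 1.21 TPM (1.02 to 1.43), both genes of retinaldehyde dehydrogenases, a 528-fold difference. PROCR, a protein C receptor gene, was at 56.9 TPM and SOX9 at 49.7 TPM. LGR5 and LGR6, R-spondin receptor genes, had counts of 0, and PROM1 was at 0.01 TPM. Of 12 pluripotency factor genes, 3 reached 1 TPM. MYC, a growth transcription factor gene, was at 110 TPM, KLF4 at 5.97 TPM and POU5F1 at 1.20 TPM. NANOG had a count of 0, which allows up to 0.055 TPM, and SOX2 was at 0.04 TPM.

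Markers of other cell types were sparse, with single exceptions. Of 16 leukocyte markers, 2 reached 1 TPM. CD14, a monocyte co-receptor gene for bacterial lipopolysaccharide, was at 6.16 TPM. PTPRC, the pan-leukocyte CD45 gene, and MS4A1, the B cell CD20 gene, had counts of 0, which allow up to 0.025 and 0.038 TPM. CD79A, a B cell receptor subunit gene, was at 0.10 TPM (5 counts).

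Of 12 fibroblast markers, 3 reached 1 TPM, led by FAP, a membrane protease gene, at 8.04 TPM, and COL1A2, COL3A1, DCN and LUM had counts of 0. Of 10 endothelial markers with a gene ID, only EGFL7 reached 1 TPM, at 20.3 TPM, while VWF and TIE1 had counts of 0 and CDH5 was at 0.34 TPM. Those 2 lists showed no set of defining stromal genes. Of 8 adipocyte markers, PPARG, a nuclear receptor gene, was at 32.2 TPM and FABP4 at 4.78 TPM, and ADIPOQ and LEP had counts of 0. Of 9 liver markers, only SERPINA1, the alpha-1 antitrypsin gene, reached 1 TPM, at 41.0 TPM, and ALB had a count of 0. Of 11 neuronal markers with a gene ID, 3 reached 1 TPM, led by TUBB3, a tubulin gene with divided reads, at 46.8 TPM. Of 7 melanocyte and 9 erythroid and platelet markers, 1 each reached 1 TPM (MITF at 2.83 TPM and HBA1 at 1.59 TPM), and none of 11 muscle markers did.

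Of 25 developmental transcription factors of other organs, 2 reached 1 TPM and 16 had a count of 0. NKX2-5, a cardiac homeobox gene, was at 34.7 TPM (interval 33.4 to 36.0) from 2820 whole counts, and GATA6 at 3.06 TPM. The coding neighbours of NKX2-5, STC2 and BNIP1, were at 26.5 and 22.1 TPM. All 16 cancer-testis antigen genes with a gene ID had counts of 0.

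**Figure D5:**
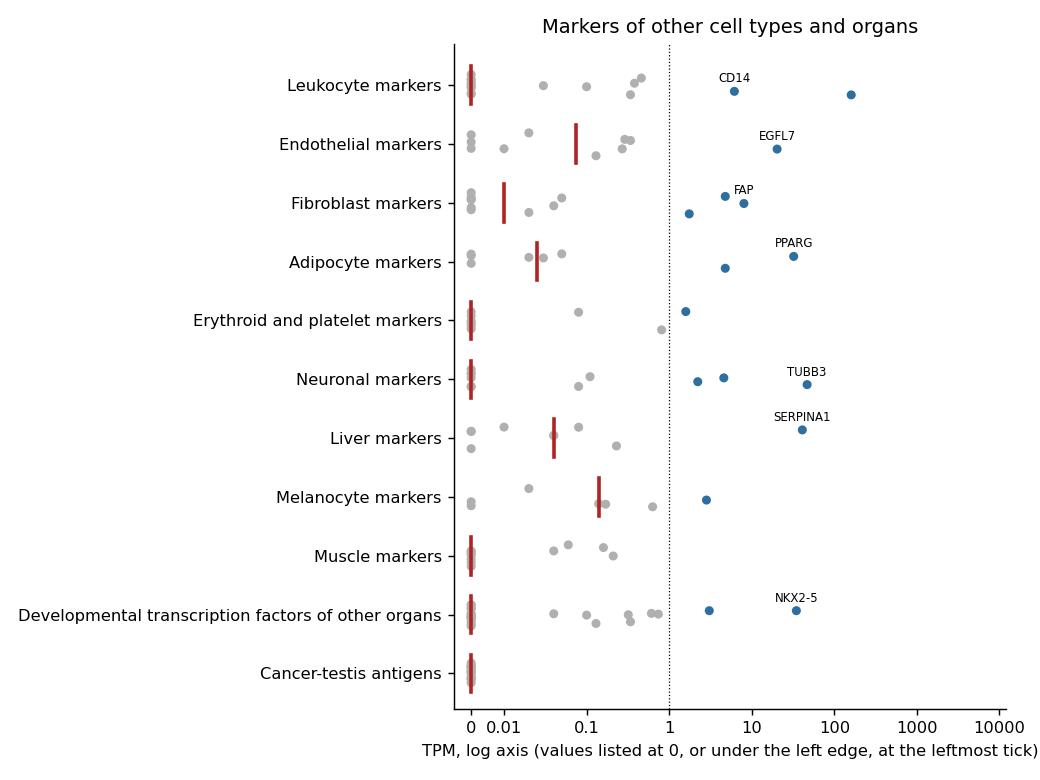
TPM of each member of 11 lists of markers of other cell types, organs and germline antigens in the untreated library, on a log axis with zero values at the leftmost tick; blue points are at or above 1 TPM, grey points below, red bars are list medians. Every list median is below 1 TPM, and labelled points at or above 1 TPM include TUBB3, SERPINA1, NKX2-5 and PPARG.

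Cytokine and antigen presentation genes ranged from abundant class I genes to class II genes that were mostly low. Of 18 chemokine genes with a gene ID, 9 reached 1 TPM, or 50% beside 58.6% of all protein-coding genes. CXCL1, with divided reads, and CXCL8, both neutrophil attractants, were at 407 and 157 TPM, while CXCL9, CXCL12, CXCL5 and CXCL6 had counts of 0. Of 23 interleukin and growth cytokine genes, 16 reached 1 TPM, with IL18 at 172 TPM, IL1B at 97.2 TPM and IL1A at 67.0 TPM, and TNF at 0.01 TPM. All 16 class I presentation genes reached 1 TPM. B2M, the light chain gene, was at 1499 TPM, and HLA-C and HLA-B, with divided reads, were at 210 and 111 TPM. Of 10 class II genes, 4 reached 1 TPM, with CD74, the invariant chain gene, at 62.7 TPM and HLA-DRA at 0.02 TPM (1 count). Of 20 interferon-stimulated genes, 14 reached 1 TPM, with IFITM3, with divided reads, at 272 TPM, BST2 at 257 TPM and MX1 at 0.33 TPM. Of 22 pattern receptor and sensor genes, 13 reached 1 TPM, a share of 59.1% that is near the 58.6% of all protein-coding genes. TLR2, TLR7 and TLR8 had a count of 0. Of 18 checkpoint and surface antigen genes, 14 reached 1 TPM, with CD274, which codes for PD-L1, at 3.65 TPM.

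Calcium-binding, adhesion and matrix gene families each held both abundant and near-absent members. Of 17 S100 genes, 13 reached 1 TPM, and S100A2 was 5.78-fold above the next, S100A11, at 3179 TPM. S100A8, the partner of S100A9, was at 0.54 TPM while S100A9 was at 72.1 TPM. Of 25 integrin genes, 12 reached 1 TPM and 5 reached 100 TPM, ITGA3, a laminin receptor gene, at 541 TPM among them. ITGB3 was at 0.47 TPM. Of 11 laminin genes 8, and of 20 collagen genes 13, reached 1 TPM. Those shares are 72.7% and 65%, beside 58.6% of all protein-coding genes. After COL17A1, the highest collagen genes were the fibril-associated chains COL16A1 (115 TPM) and COL12A1 (69.9 TPM), then COL4A2 of basement membranes (59.5 TPM) and COL7A1 of anchoring fibrils (42.6 TPM). COL1A1, a fibrillar chain gene, was at 1.75 TPM. Of 13 mucin genes, 2 reached 1 TPM, with MUC1 at 1.34 TPM. Of 24 protease and inhibitor genes with a gene ID, 18 reached 1 TPM. CTSD, a lysosomal protease gene, was at 711 TPM and PLAU, the urokinase gene, at 73.4 TPM, while MMP1, MMP3, MMP9, MMP10 and MMP13 were at 0.42 TPM or lower. Of 12 myoepithelial contractile genes, 6 reached 1 TPM, with ACTA2, the smooth muscle actin gene, at 6.90 TPM and CNN1 at a count of 0.

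Genes of developmental signalling pathways ranged from a few counts to over 100 TPM. Of 29 WNT ligand and receptor genes, 18 reached 1 TPM, a share of 62.1% that is near the 58.6% of all protein-coding genes. DKK1, a WNT antagonist gene, was at 202 TPM and AXIN2, a WNT target gene, at 0.02 TPM. Of 19 Notch genes, 13 (68.4%) reached 1 TPM. The target HES1 was at 67.4 TPM, the ligands JAG2 and JAG1 at 41.6 and 38.7 TPM and NOTCH1 at 19.5 TPM. Of 21 TGF-beta and BMP genes, 18 reached 1 TPM, with ID1, a BMP target gene, at 206 TPM and TGFBR2 at 34.5 TPM. Of 15 YAP and TEAD genes, 14 reached 1 TPM, with F3, the tissue factor gene, at 178 TPM and YAP1 at 18.5 TPM. Of 20 AP-1, MYC and other growth transcription factor genes, 18 reached 1 TPM, with FOS at 158 TPM and MYCN at 0.20 TPM. Of 15 BCL2 family genes, 11 reached 1 TPM, with MCL1 at 107 TPM and BCL2 at 0.80 TPM.

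Metabolic genes were among the most abundant. Of 25 glycolysis genes, 21 reached 1 TPM and 14 reached 100 TPM, with ENO1 at 2970 TPM, PKM at 2534 TPM and LDHA at 1712 TPM. The glucose transporter gene SLC2A1 was at 118 TPM and SLC2A3 at a count of 0. All 13 mitochondrially encoded protein genes (median 4459 TPM) and all 33 listed ribosomal protein genes (median 3075 TPM) exceeded 100 TPM. The mitochondrial list includes genes with an effective length under 200, which were not ranked, and its median is the value of 1 of them. All 19 cholesterol and fatty acid synthesis genes with a gene ID were at or above 10 TPM, with FDPS at 649 TPM and FASN, the fatty acid synthase gene, at 555 TPM. All 22 NRF2 antioxidant genes with a gene ID reached 1 TPM, from FTH1, a ferritin gene, at 1359 TPM to HMOX1, the heme oxygenase gene, at 2.90 TPM. All 18 hypoxia genes reached 1 TPM. Only DDIT4 reached 100 TPM: DDIT4, a stress-induced inhibitor of mTOR signalling, was at 870 TPM and CA9, a hypoxia-induced carbonic anhydrase gene, at 14.1 TPM. All 16 heat shock genes reached 10 TPM, with HSPA8 at 2180 TPM. Of 19 aldehyde dehydrogenase genes, 13 reached 1 TPM, and ALDH2 was at 0.08 TPM. Of 11 metallothionein genes, only MT2A (570 TPM, with divided reads) and MT1X (18.9 TPM) reached 1 TPM, and 7 had a count of 0. Of 26 chromatin writers and erasers, 22 reached 1 TPM, with PRMT1, an arginine methyltransferase gene, at 461 TPM and DNMT3L at a count of 0.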

How the data were processed

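RNA of 1 untreated MCF10Ca1h library was analysed. The deposited expected counts are estimated reads per gene, not normalized, per the file headers, and the deposited TPM values are scaled by effective length to a fixed total, per the file headers. RSEM and hg19 were used, per the submitters' processing notes. Not given in the sources used here: RSEM version, aligner, annotation and strand setting. CPM was computed from expected counts. Symbols came from a gene name table and gene types from GENCODE release 29, matched by gene ID: 38966 of 56632 IDs had a symbol, and IDs without one took 1.06% of counts. Ranks used protein-coding genes with an effective length of at least 200. A count of 0 was taken to allow up to 3 counts, a fixed limit below the 3.69 of the Poisson interval. A count within 0.005 of a whole number is called whole, any other divided. Of gene IDs at or above 1 TPM, 65.4% had whole counts. Divided reads are not flagged for every gene named, so a gene without the flag can also have them. Members and the 69 gene lists (1169 entries, 23 without a gene ID and not analysed here) were chosen with earlier results of these data known. Named genes were the 30 highest coding and 10 highest noncoding genes, list members and 13 fixed genes, and others are said to be chosen after their values were seen. Alternatives were CPM, other minimums, rescaling, ranking by count and whole counts only. No test was possible with 1 library. Intervals and classes were checked on simulated Poisson counts, which tests the computation only. Divided reads and spread between libraries were not simulated. Python 3.11.15, pandas 2.3.3 and scipy 1.17.1 were used. Promoter windows matched 14956 of 18904 distinct coding symbols by name. PCR copies were not separable from molecules. Some list members and 1 list are not reported here.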

Additional observations from a re-analysis of the deposited data

How the results depend on the processing

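With 1 library, depth limits only genes near 0: 1 count is 0.016 TPM at an effective length of 1000. No paired analysis was possible because the group holds 1 library. Of 275 recomputed list counts, 264 stayed within 1.5 times the reported count. With 2 TPM as the minimum, hormone receptors and targets had 3 genes, and erythroid and platelet markers, the INK4 locus and mucins had 0 each. With 0.5 TPM, erythroid and platelet markers had 2, melanocyte markers 2 and developmental factors of other organs 4. With CPM, erythroid and platelet markers had 0, muscle markers 1, mucins 1 and developmental factors 4. Counting only genes with whole counts gave 8492 of all gene IDs at or above 1 TPM. Of the 30 highest genes, 17 stayed when ranked by expected count. With classes by CPM, CpG-rich windows made up 82.4% at or above 100 and 79.7% at 10 to 100. The class of 1 to 10 CPM had too few matched genes for a share. Leaving out mitochondrial and short genes multiplied every other TPM by 1.13 and moved no list count by over 1.5 times, while the mitochondrial list could not be recomputed. Single genes ranked by count moved by over 1.5 times for 5 of 12, HRAS to 348 and EGFR to 1615 among them. Rescaling moved the TPM of 7 of the 12 beyond their counting intervals, PADI3 to 59.2 and HRAS to 867 among them.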

Other observations

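The HOX clusters are described by how many members reached 1 TPM, beside 58.6% of all protein-coding genes. Of 11 HOXA genes, 8 (72.7%) were at or above 1 TPM, with HOXA9 at 10.2 TPM and HOXA7 at 8.12 TPM, both with divided reads. HOXA2, below that level at 0.94 TPM, still had 107 counts. Of 10 HOXB genes 3 (30%), and of 9 HOXC genes 5, reached 1 TPM. The HOXC share, 55.6%, is near that of all protein-coding genes. The highest were HOXB6 at 3.06 TPM and HOXC13, with divided reads, at 20.5 TPM. None of 9 HOXD genes did, and 7 of them had a count of 0.

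The values of 5 secreted defence genes are given here, chosen after they were seen to be high, so they say nothing of such genes as a group. SERPINA3, an acute-phase protease inhibitor gene, was at 785 TPM, C3, a complement gene, at 269 TPM, SLPI, a leukocyte protease inhibitor gene, at 254 TPM, KLK5, a kallikrein protease gene, at 237 TPM and LCN2, an iron-binding defence protein gene, at 180 TPM. All 5 had whole counts. Other defence genes among the listed members ranged from high to absent. They included PI3 at 225 TPM and S100A9 at 72.1 TPM. S100A8 was at 0.54 TPM, S100A7 at 0.06 TPM, S100A12 at 0.05 TPM and LYZ, the lysozyme gene, at a count of 0.

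The 10 highest noncoding genes by GENCODE type included the pseudogenes RPL23AP42 (1050 TPM) and H3P6 (572 TPM), both with divided reads. GPX1, typed there as a polymorphic pseudogene, was at 561 TPM, and SNHG29 and SNHG6 were at 623 and 296 TPM.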
